A study of Rattus norvegicus with 11 samples.

Results

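The B cell, plasma cell and IgA transport genes described here are Pax5, Ms4a1, Cd79a, Cd79b, Cxcr5, Tnfrsf17, Mzb1, Jchain and Pigr. They were chosen by gene symbol, and all 9 of the 9 listed symbols were found among the 24481 genes of the read count table and among the 24205 genes of the FPKM table. RNA of the ileum of 11 Sprague-Dawley rats aged 6 to 8 weeks was sequenced, 3 of them controls, 4 with SAP and 4 with SAP and JZL184. SAP is severe acute pancreatitis, which was induced by injecting 3% sodium taurocholate, a bile salt, into the pancreatic duct. Rats were assigned to groups 24 h after the operation, and the JZL184 group then had pancreatitis and 1 intraperitoneal dose of 10 mg/kg of JZL184, an inhibitor of monoacylglycerol lipase (MAGL), the enzyme that degrades the endocannabinoid 2-AG. By the study's methods, the other rats were injected with vehicle, and all tissue was taken 24 h later. The sample labels instead name a control plasmid for the control rats and oil in the titles of the SAP rats, and the sources used here do not say whether the control rats were operated on. The comparison of SAP with control asks what pancreatitis does to the ileum, and the comparison of JZL184 with SAP asks what inhibition of MAGL adds.

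B lymphocytes see antigen through a receptor whose signals pass through the Cd79a and Cd79b chains, and they gather in follicles of the gut wall, such as Peyer's patches, where the chemokine Cxcl13 draws cells that carry its receptor Cxcr5. Activated B cells that switch to IgA and mature to plasma cells lose Pax5, Ms4a1 and Cxcr5, gain Tnfrsf17 and a large secretory apparatus, and settle in the lamina propria with the help of homing receptors such as Ccr9, Ccr10 and the integrin chain Itgb7. Their IgA is joined to dimers by the J chain, and epithelial cells carry these dimers to the lumen with the polymeric immunoglobulin receptor, encoded by Pigr.

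Promoter sequences were available for 4 of the 9 genes (Cd79a, Jchain, Pigr and Tnfrsf17) in the RefSeq promoter table of the rat assembly GRCr8, which holds 250 bases before and 50 bases after the start of each gene. The promoters of Cd79a, Jchain and Pigr are shown because these genes stand for the 3 steps that the results set apart, the B cell receptor, the assembly of IgA dimers and their transport. Capitals mark matches, on either strand, to 4 motifs that were picked after the sequences had been seen, which are the octamer ATGCAAAT, the E box CACGTG, the PU.1 type motif GAGGAA and the IRF type motif AANNGAAA. Sequences are written 5′ to 3′ on the strand of the gene.
Cd79a: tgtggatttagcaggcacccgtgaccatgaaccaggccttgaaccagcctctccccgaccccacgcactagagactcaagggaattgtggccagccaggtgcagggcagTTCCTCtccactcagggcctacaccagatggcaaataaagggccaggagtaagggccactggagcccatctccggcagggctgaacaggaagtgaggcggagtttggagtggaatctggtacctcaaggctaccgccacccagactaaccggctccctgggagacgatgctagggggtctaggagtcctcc
Jchain: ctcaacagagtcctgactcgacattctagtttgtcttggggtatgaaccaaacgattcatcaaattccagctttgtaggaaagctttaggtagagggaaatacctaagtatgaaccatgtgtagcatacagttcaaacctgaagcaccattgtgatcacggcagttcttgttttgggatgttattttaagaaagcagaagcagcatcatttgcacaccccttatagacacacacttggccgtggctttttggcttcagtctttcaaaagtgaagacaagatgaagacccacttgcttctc
Pigr: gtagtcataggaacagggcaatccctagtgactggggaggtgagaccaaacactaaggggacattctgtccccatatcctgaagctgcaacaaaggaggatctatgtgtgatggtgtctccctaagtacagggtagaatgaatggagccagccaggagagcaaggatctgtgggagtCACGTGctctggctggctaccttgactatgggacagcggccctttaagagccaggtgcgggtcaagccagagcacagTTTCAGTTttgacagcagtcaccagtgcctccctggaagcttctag
The Cd79a window lies at chr1:89621210-89621509 (plus strand), that of Jchain at chr14:19822726-19823025 (plus strand) and that of Pigr at chr13:44850932-44851231 (plus strand), all in GRCr8. The Cd79a window held 1 match to GAGGAA, written as its reverse complement, at -141 to -136 from the start, and 27.6% of the 33469 promoters of the table held this motif. In the Pigr window CACGTG lay at -73 to -68, a motif that 6.42% of the promoters held, and the reverse complement of AANNGAAA lay at 5 to 12. The motif AANNGAAA was also matched at -101 to -94 in the Tnfrsf17 window, and 26.4% of the promoters held it. None of the 4 windows held the octamer, which 1.78% of the promoters held, and the Jchain window held no match to any of the 4 motifs. A match is a description of letters, and no match says only that these letters are not in this window.

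Between 26341299 and 33847135 reads per library lay on genes, and a member gene had between 27 and 56644 reads in a library. Control libraries 1 and 2 were nearly identical, with a chi-square per gene of 2.81 against 77.48 to 563.03 in the other pairs of libraries of a group, and were counted as 1 sample, which left n = 2 in the control group. SAP libraries 1 and 2 stood apart from SAP libraries 3 and 4, with a chi-square per gene of 337.01 to 563.03 between the pairs and of 85.46 and 99.08 within them. SAP library 2 also had 20 reads on 3 Y-linked genes, where the other libraries had 1222 to 4665, and 7826 reads on LOC100911498, an uncharacterized noncoding RNA of the X chromosome, where the others had at most 56, although the study describes male rats. Most differences of the 9 genes that involve SAP, and several of the genes and lists named with them, are therefore given with and without SAP libraries 1 and 2, the latter from edgeR. JZL184 library 3 differed from the other JZL184 libraries by a chi-square per gene of 309.05 to 405.79, against 115.21 to 269.46 among those. It had 266 FPKM of the epithelial marker Fabp2, where the other JZL184 libraries had 5887.8 to 8100.6. For the chemokine Ccl25 it had 4.47, where they had 287 to 453. What sets this library apart was not tested. The labels name intestinal epithelial cells in tissue of the ileum, and RNA of other cells was present in every group, since 10 T cell markers summed to between 55.4 and 171 FPKM and 6 smooth muscle markers to between 367 and 2115.4 FPKM. Nothing in the labels says more of how the rats of a group relate than that they are separate samples, and p-values measure the spread between these samples.

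In SAP, the 5 B cell genes had lower mean FPKM than in the control group without passing the test, and SAP library 1 was the lowest of the SAP libraries in all 5. Differences in read counts were tested with edgeR's quasi-likelihood test over all genes, and calls required both an adjusted p (Benjamini-Hochberg) under 0.05 and at least a change of 2-fold in either direction. DESeq2 was run beside it with the same thresholds. Between SAP and control, edgeR called 0 of the 9 genes (background 0.0% of 16029 genes) and DESeq2 called 0 (background 1.23%), limma-voom with quality weights called 0 (background 0.0873%), and 2 genes, Pax5 and Cxcr5, had an unadjusted p below 0.05 with edgeR (background 9.09%). All 9 log2 fold changes were negative, with a median of -0.83, where the median of all genes tested was 0.06. Without SAP libraries 1 and 2 the median was -0.39, and 2 of the 9 were positive. In 6 of the 9 genes the FPKM of the SAP libraries lay below those of the control samples without overlap (background 8.65%). FPKM are fragments scaled to the length of the gene and to the depth of the library, so that they can be compared between genes. In such pieces of tissue, fewer cells of a type and less RNA per cell cannot be told apart.

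**Figure D1:**
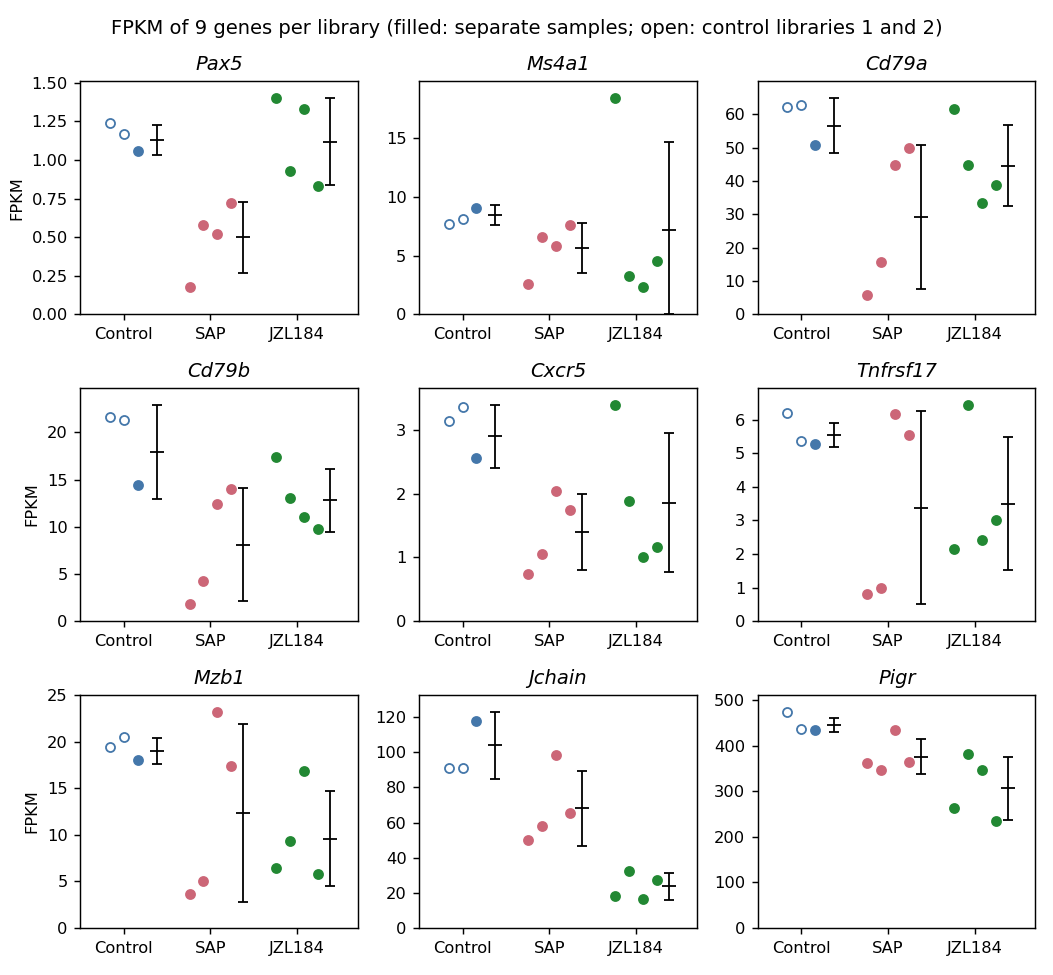
FPKM (vertical axes, linear, from 0) of the 9 genes in each of the 11 libraries by group, with bars for the mean ± SD (n = 2 control samples, 4 SAP and 4 JZL184) beside the points. The 4 JZL184 libraries lie between 16.7 and 32.5 for Jchain, below all SAP and control libraries, and SAP libraries 1 and 2, the left pair of red points, lie lowest for Cd79a, Cd79b, Tnfrsf17 and Mzb1.

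Pax5, the transcription factor that sets and keeps B cell identity, had 1.24, 1.17 and 1.06 FPKM in control libraries 1 to 3, 0.18, 0.58, 0.52 and 0.72 in SAP libraries 1 to 4, and 1.40, 0.93, 1.33 and 0.83 in JZL184 libraries 1 to 4. The 4 SAP values lay below all others, and the JZL184 values lay around those of the controls. The log2 fold change of SAP against control was -1.33 (SE 0.54, edgeR adjusted p = 0.459, exact permutation p of the FPKM 0.133, the smallest that 4 against 2 allows), and it was -0.93 without SAP libraries 1 and 2. In JZL184 against SAP it was 1.28 (SE 0.44, edgeR adjusted p = 0.16, DESeq2 adjusted p = 0.0559, exact permutation p = 0.0286, the smallest that 4 against 4 allows), and 0.88 without SAP libraries 1 and 2. JZL184 and control differed by -0.07 on the log2 scale (SE 0.31, edgeR adjusted p = 0.905).

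Cd79a, a signalling chain of the B cell receptor, had 62.2, 62.7 and 50.8 FPKM in the control libraries, 5.94, 15.8, 44.9 and 50 in SAP and 61.5, 44.7, 33.5 and 38.9 in JZL184. SAP libraries 1 and 2 were far below all other libraries, and SAP libraries 3 and 4 lay within the range of JZL184 and just below the controls. Cd79b, the partner chain, had 21.6, 21.3 and 14.4 FPKM in the control libraries, 1.77, 4.30, 12.4 and 14.0 in SAP and 17.4, 13, 11 and 9.75 in JZL184. The order of the libraries was close to that of Cd79a, and the ratio of Cd79a to Cd79b FPKM stayed between 2.88 and 3.99 in the 11 libraries. In SAP against control the log2 fold changes were -1.08 for Cd79a (SE 0.77, edgeR adjusted p = 0.502) and -1.27 for Cd79b (SE 0.77, edgeR adjusted p = 0.465). Without SAP libraries 1 and 2 they were -0.32 and -0.51. In JZL184 against SAP they were 0.70 for Cd79a (SE 0.60, edgeR adjusted p = 0.494) and 0.74 for Cd79b (SE 0.60, edgeR adjusted p = 0.467), and without SAP libraries 1 and 2 they were -0.04 and -0.00188. Against control, JZL184 had -0.39 for Cd79a (SE 0.31, edgeR adjusted p = 0.456) and -0.54 for Cd79b (SE 0.33, edgeR adjusted p = 0.329).

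Ms4a1, which encodes the B cell surface protein CD20, had 7.66, 8.08 and 9.04 FPKM in the control libraries, 2.59, 6.61, 5.81 and 7.61 in SAP and 18.4, 3.28, 2.35 and 4.51 in JZL184. JZL184 library 1 was above every other library and the remaining 3 JZL184 libraries were below the controls. JZL184 had a mean of 7.14 ± 7.57 FPKM (SD, n = 4). The difference from SAP was 0.42 on the log2 scale (SE 0.62, edgeR adjusted p = 0.703), which became -0.54 without JZL184 library 1 and 0.09 without SAP libraries 1 and 2. Against control the log2 fold change was -0.32 in JZL184 (SE 0.72, edgeR adjusted p = 0.803) and -0.73 in SAP (SE 0.46, edgeR adjusted p = 0.470, -0.39 without SAP libraries 1 and 2). The same library was high in another gene of B cell follicles. Cr2, the complement receptor of B cells and follicular dendritic cells, chosen after its values were seen, had 21.4 FPKM in JZL184 library 1 and between 1 and 7.65 in the other 10 libraries.

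Cxcr5, the chemokine receptor that leads B cells into follicles, had 3.14, 3.36 and 2.56 FPKM in the control libraries, 0.74, 1.05, 2.04 and 1.75 in SAP and 3.39, 1.88, 1.01 and 1.17 in JZL184. All SAP values lay below the controls, and those of JZL184 overlapped both groups. For Cxcr5 the difference on the log2 scale was -1.21 in SAP against control (SE 0.48, edgeR adjusted p = 0.459, -0.69 without SAP libraries 1 and 2), 0.53 in JZL184 against SAP (SE 0.48, edgeR adjusted p = 0.522, 0.02 without them) and -0.69 in JZL184 against control (SE 0.48, edgeR adjusted p = 0.383). When control libraries 1 and 2 entered DESeq2 separately, it called Pax5 and Cxcr5 lower in SAP at log2 fold changes of -1.38 and -1.28 (background 8.46%).

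Among the plasma cell genes, SAP libraries 1 and 2 were low again, and in JZL184 Jchain alone passed the test. Tnfrsf17, which encodes the plasma cell survival receptor BCMA, had 6.21, 5.37 and 5.28 FPKM in the control libraries, 0.82, 0.99, 6.18 and 5.54 in SAP and 2.16, 6.43, 2.42 and 3.00 in JZL184. SAP libraries 3 and 4 and JZL184 library 2 were at the level of the controls, and the other 5 libraries of these groups were below it. The SAP libraries 1 and 2 held 27 and 29 reads of this gene. SAP differed from control by -0.83 on the log2 scale (SE 0.85, edgeR adjusted p = 0.617) and became 0.01 without SAP libraries 1 and 2. The log2 fold change of Tnfrsf17 was 0.20 in JZL184 against SAP (SE 0.74, edgeR adjusted p = 0.890, -0.64 without SAP libraries 1 and 2) and -0.65 in JZL184 against control (SE 0.54, edgeR adjusted p = 0.464).

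Mzb1, a chaperone of the endoplasmic reticulum that assists antibody assembly in marginal zone B cells and plasma cells, had 19.4, 20.5 and 18.0 FPKM in the control libraries, 3.6, 5, 23.2 and 17.4 in SAP and 6.42, 9.38, 16.9 and 5.75 in JZL184. The 4 JZL184 values lay below the controls, library 3 only just, and SAP spanned the whole range. The log2 fold change of Mzb1 was -0.75 for SAP against control (SE 0.75, edgeR adjusted p = 0.607, 0.02 without SAP libraries 1 and 2) and of -0.27 in JZL184 against SAP (SE 0.63, edgeR adjusted p = 0.821, -1.03 without SAP libraries 1 and 2). In JZL184 against control it was -1.03 (SE 0.43, edgeR adjusted p = 0.171), a difference that limma-voom with quality weights called.

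Jchain, which encodes the chain that links IgA to dimers and IgM to pentamers, had 90.8, 90.8 and 118 FPKM in the control libraries, 50.2, 57.9, 98.3 and 65.4 in SAP and 18.2, 32.5, 16.7 and 27.3 in JZL184. Every JZL184 library lay below every SAP and control library, and SAP library 3 lay between the control values. Mean levels were 104 ± 19.0 FPKM for the controls (SD, n = 2), 68.0 ± 21.2 for SAP (SD, n = 4) and 23.7 ± 7.53 for JZL184 (SD, n = 4). In JZL184 against control, edgeR called 1 of the 9 genes (background 2.16% of 15916 genes), DESeq2 called 1 (background 10.8%), limma-voom called 2, Jchain and Mzb1 (background 18.3%), and 2 had an unadjusted p below 0.05 (background 26.3%). The called gene was Jchain, which fell 4.39-fold (log2 fold change -2.14, SE 0.37, edgeR adjusted p = 0.0350, DESeq2 adjusted p = 9.95e-05, between 3.12e-07 and 0.365 over the alternatives). The call was lost without either control sample, without JZL184 library 2 and without JZL184 library 4, where the log2 fold change was between -2.40 and -2.01. In JZL184 against control 3 of the 9 genes, Jchain, Mzb1 and Pigr, had lower FPKM without overlap (background 18.1%), and all 9 log2 fold changes were negative with a median of -0.56, beside 0.08 for all genes tested.

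In JZL184 against SAP, edgeR called 0 of the 9 genes (background 0.0% of 15308 genes), limma-voom with quality weights called 0 (background 4.57%), and DESeq2 called 1, Jchain (background 6.98%). At an unadjusted p below 0.05 edgeR had 2 of the 9, Pax5 and Jchain (background 21.3%). Jchain was the only one of the 9 genes that lay lower in JZL184 without overlap (background 6.53%), and Pax5 the only one that lay higher without overlap (background 4.7%). The log2 fold change of Jchain was -1.34 (SE 0.36, edgeR adjusted p = 0.110, DESeq2 adjusted p = 0.0208, exact permutation p = 0.0286), and it was -1.70 without SAP libraries 1 and 2. In SAP against control it was -0.77 (SE 0.35, edgeR adjusted p = 0.459, exact permutation p = 0.267), and -0.42 without these libraries.

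**Figure D2:**
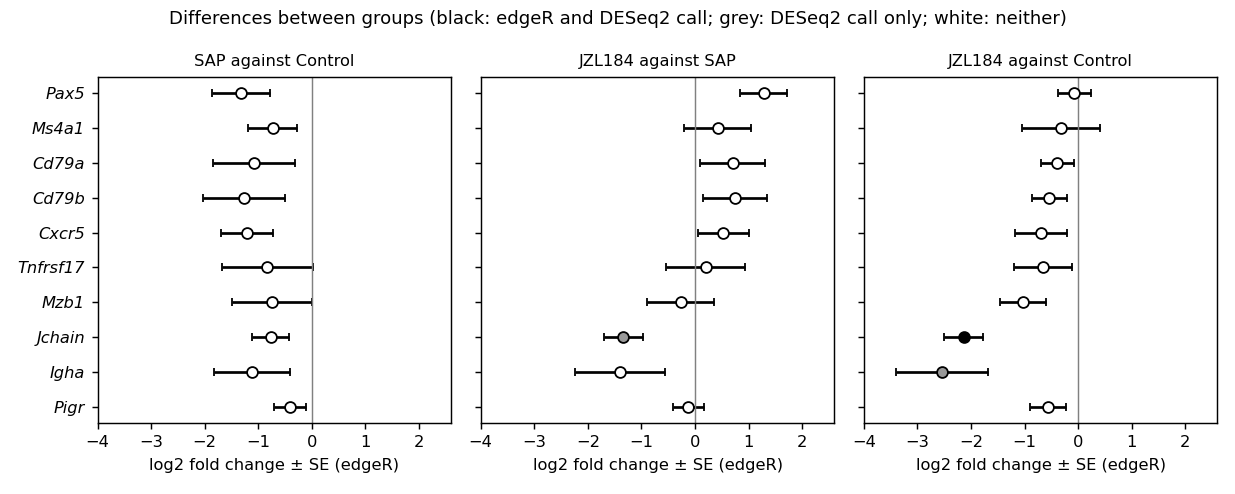
Log2 fold changes with standard errors from edgeR (horizontal axes) of the 9 genes and of Igha in the 3 comparisons, with black points called by edgeR and DESeq2, grey points by DESeq2 alone and white points by neither. Jchain lies at -1.34 against SAP and at -2.14 against control in JZL184, whereas Pax5 lies at 1.28 and at -0.07.

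Set beside the B cell receptor chain, the J chain RNA of the JZL184 libraries was low. The ratio of Jchain to Cd79a FPKM was 1.46, 1.45 and 2.32 in the control libraries, 8.45, 3.67, 2.19 and 1.31 in SAP libraries 1 to 4 and 0.30, 0.73, 0.50 and 0.70 in JZL184 libraries 1 to 4. All JZL184 ratios were below those of the other groups, and the ratios of SAP libraries 1 and 2 were the highest, where Cd79a was lowest. The ratio of Mzb1 to Cd79a FPKM did not separate the groups. It was 0.10, 0.21, 0.50 and 0.15 in JZL184 libraries 1 to 4, 0.31 to 0.35 in control and 0.32 to 0.61 in SAP. These ratios are a description, and no test was made of them.

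Igha, the constant region of the IgA heavy chain on chromosome 6, followed Jchain in direction with a wider spread. Its FPKM were 2930.8, 2904.7 and 1755.0 in the control libraries, 432, 535, 2408.9 and 1380.3 in SAP and 118, 868, 89.8 and 481 in JZL184. JZL184 libraries 1 and 3 were the lowest of all, and each JZL184 library was below each control library. The log2 fold change of Igha in JZL184 against control was -2.54 (SE 0.86, edgeR adjusted p = 0.118, DESeq2 adjusted p = 0.0124), so that DESeq2 called it and edgeR did not. It was -1.40 in JZL184 against SAP (SE 0.84, edgeR adjusted p = 0.340, -2.13 without SAP libraries 1 and 2) and -1.12 in SAP against control (SE 0.71, edgeR adjusted p = 0.475, -0.40 without them). The ratio of Igha to Cd79a FPKM was between 34.5 and 47.1 in control, between 27.6 and 72.7 in SAP and between 1.92 and 19.4 in JZL184. Some immunoglobulin segments are close copies of each other, and only uniquely aligned reads were counted, so these values are uncertain.

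**Figure D3:**
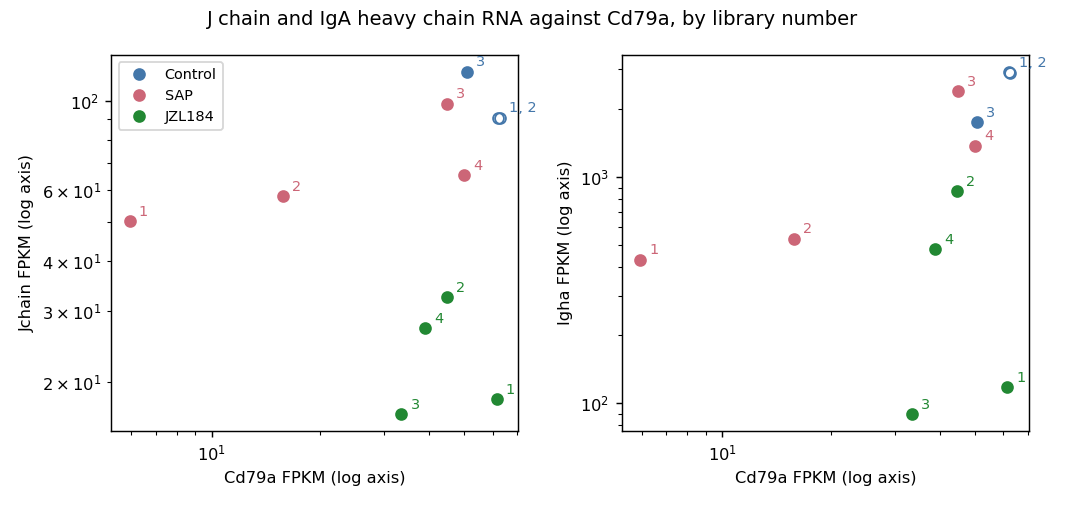
FPKM of Jchain (left) and Igha (right) against Cd79a in each library, both axes logarithmic, with points numbered by library. The JZL184 libraries hold between 33.5 and 61.5 FPKM of Cd79a and 16.7 to 32.5 FPKM of Jchain. The control libraries hold between 50.8 and 62.7 FPKM of Cd79a, and of the JZL184 libraries only library 1 reaches that range.

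The V segments, the variable parts of which each plasma cell clone uses 1 for its heavy chain, were counted as 87 genes on chromosome 6, a list that was made after the values had been seen, so that its sums are given as a description. Without the gene listed as Ighv, they took, per 1000000 reads on genes, 828, 827 and 416 reads in the control libraries, 250, 384, 908 and 359 in SAP and 55.2, 94.3, 96.6 and 167 in JZL184. Every JZL184 library was below every other library. At least 10 reads were found on 58, 58 and 61 of the 87 genes in control, on 53, 60, 57 and 58 in SAP and on 39, 42, 37 and 44 in JZL184. The gene listed as Ighv went another way and had 64.1, 34.0, 161 and 30.1 FPKM in JZL184 libraries 1 to 4, against 36.0 to 42.6 in control and 11.5 to 40.1 in SAP. JZL184 library 3 alone lay far above, and Ighv had a log2 fold change of 0.79 in JZL184 against control (SE 0.62, edgeR adjusted p = 0.441).

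**Figure D4:**
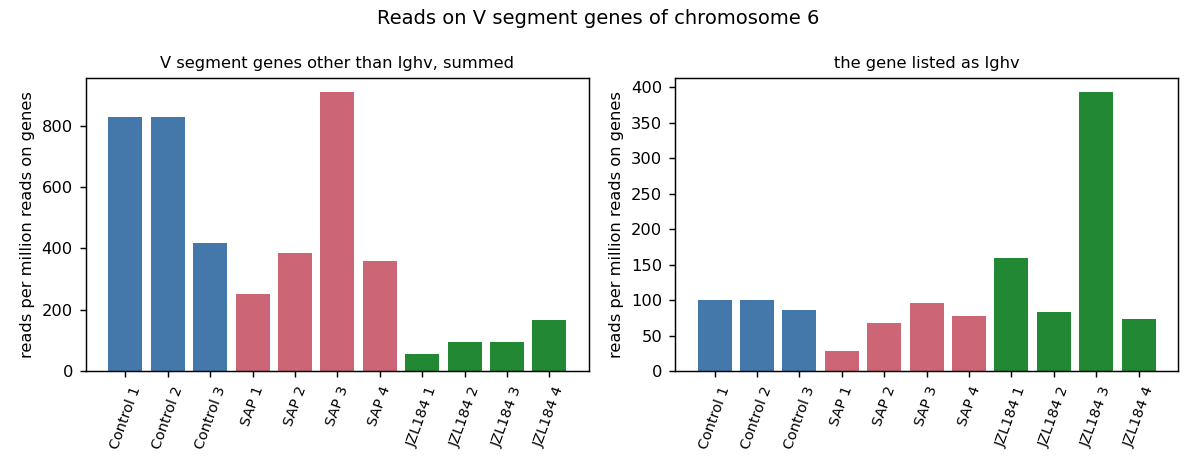
Reads per 1000000 reads on genes for the V segment genes of chromosome 6, summed without Ighv (left) and for Ighv alone (right), 1 bar per library from 0. The left bars are between 55.2 and 167 in JZL184 and between 250 and 908 elsewhere, and the right bar of JZL184 library 3 is the highest at 393.

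Pigr, the epithelial receptor that carries IgA dimers across the cell, had the highest level of the 9 genes in every library and the smallest ratio of the highest to the lowest library. It had 474, 436 and 434 FPKM in the control libraries, 361, 346, 434 and 363 in SAP and 264, 382, 346 and 235 in JZL184. SAP library 3 was just under the lowest control, JZL184 library 2 lay within the range of SAP, and the other 3 JZL184 libraries lay at or below its lowest value. Pigr had a log2 fold change of -0.41 in SAP against control (SE 0.30, edgeR adjusted p = 0.507, -0.23 without SAP libraries 1 and 2), of -0.13 in JZL184 against SAP (SE 0.29, edgeR adjusted p = 0.819, -0.31 without them) and of -0.56 in JZL184 against control (SE 0.33, edgeR adjusted p = 0.312). The difference between JZL184 and SAP changed sign, to 0.12, when each library's trend on gene length was removed. The summed FPKM of 11 epithelial markers was between 28604.6 and 29987.5 in control, between 11676.3 and 23330.8 in SAP and between 10223.5 and 18927.3 in JZL184. These markers did not move together. In JZL184 against control 8 had negative and 3 positive log2 fold changes, and in SAP against control 10 and 1. The medians were -0.57 and -0.58 in this order, beside 0.08 and 0.06 for all genes. In JZL184 against control edgeR called 1 of the 11 lower (background 2.16%), DESeq2 4 (background 10.8%) and limma-voom 4 (background 18.3%). In SAP against control each of the 3 methods called 0 (backgrounds 0.0%, 1.23% and 0.0873%). Krt20 had 6090.4 to 8321.8 FPKM in control, 2911.6 to 4715.0 in SAP and 1082.2 to 3274.9 in JZL184. Cdh1 had 105 to 118, 132 to 166 and 151 to 194. The part of the epithelium in the values of Pigr was not tested. Of 13 tested genes that act on Pigr or stand beside it in the epithelium, edgeR called 1 higher in JZL184 than in control (background 2.16%), Il1r1, the interleukin-1 receptor, with a log2 fold change of 3.06 (SE 0.37, edgeR adjusted p = 0.0149). This call was lost without either control sample and without JZL184 library 2. Rel, a subunit of NF-κB, was called higher (1.62) and Vil1, the brush border protein villin, lower (-1.58) by DESeq2 and limma-voom but not by edgeR.

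Genes of plasma cell survival factors, of IgA induction and of homing to the gut wall were compared as 1 list of 14, of which 13 were tested in JZL184 against control. There edgeR called 2 lower, Itgb7 and Ccr10, and 1 higher, Il6 (background 2.16%), while DESeq2 called Ccr9 lower as well (background 10.8%). The median log2 fold change of the list was 0.02, beside 0.08 for all genes. Itgb7, the chain of the gut homing integrin, had 10.7, 11 and 12.2 FPKM in the control libraries, 2.67, 3.55, 9.17 and 6.27 in SAP and 3.49, 2.28, 1.42 and 1.40 in JZL184. All JZL184 and SAP values were below the controls, and Itgb7 fell 5.48-fold in JZL184 against control (log2 fold change -2.46, SE 0.39, edgeR adjusted p = 0.0260). Itgb7 is also made by T cells, whose 10 markers summed to between 149 and 171 FPKM in control, between 55.4 and 168 in SAP and between 101 and 133 in JZL184. In JZL184 against control 9 of the 10 had negative log2 fold changes, with a median of -0.96 beside 0.08 for all genes. DESeq2 called 4 of them lower (background 10.8%), limma-voom 5 (background 18.3%) and edgeR 0 (background 2.16%). The part of T cells in the result was not tested. Ccr10, a chemokine receptor of IgA plasma cells, had few reads, with 28, 26 and 17 in the control libraries, 1, 3, 14 and 7 in SAP and 3, 2, 2 and 2 in JZL184. Per read on genes, the 9 reads of JZL184 against the 71 of control gave a ratio of 0.0971 (95% exact interval 0.0427 to 0.195, which covers counting error only), and edgeR gave an adjusted p of 0.0351. Like the call of Jchain, those of Itgb7 and Ccr10 were lost without either control sample and without JZL184 library 2 or 4, and that of Ccr10 also with all 3 groups in 1 fit. Without SAP libraries 1 and 2, Itgb7 had a log2 fold change of -0.65 in SAP against control and of -1.79 in JZL184 against SAP, where it was -1.23 and -1.21 with them.

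Ccr9, the receptor for the small intestinal chemokine Ccl25, had 1.39, 1.34 and 2.30 FPKM in the control libraries, 1.52, 3.64, 2.13 and 1.75 in SAP and 0.70, 0.47, 0.08 and 0.70 in JZL184. The JZL184 values lay below all others, and DESeq2 but not edgeR called Ccr9 lower in JZL184 than in SAP (log2 fold change -2.02, edgeR adjusted p = 0.126, DESeq2 adjusted p = 0.0128, -1.92 without SAP libraries 1 and 2). Ccl25 itself had 374, 287, 4.47 and 453 FPKM in JZL184 libraries 1 to 4, 349 to 446 in SAP and 533 to 581 in control. Both genes were thus lowest in JZL184 library 3, and the cause was not tested. Il6, a cytokine that supports plasma cells, had no reads in control libraries 1 and 2 and 0.21 FPKM in control library 3, between 0.43 and 2.54 FPKM in SAP and between 3.38 and 10.4 in JZL184, and was called higher in JZL184 than in control (edgeR adjusted p = 0.0372). That call was lost without either control sample and without JZL184 library 2 or 4, the adjusted p then reached 0.350, and leaving out single samples moved the log2 fold change of Il6 to between 4.96 and 10.95 (10.95 without control library 3). DESeq2 called Il6 higher in SAP than in control as well (log2 fold change 4.15, DESeq2 adjusted p = 0.00995, background 1.23%), and edgeR did not (edgeR adjusted p = 0.459). The plasma cell survival factors Tnfsf13 (APRIL) and Tnfsf13b (BAFF) were not called in any comparison, with log2 fold changes of -0.58 and -0.32 in JZL184 against SAP and of -0.28 and -0.35 without SAP libraries 1 and 2.

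Cxcl13, the follicular ligand of Cxcr5, had 3.08, 4.14 and 5.09 FPKM in the control libraries, 12.3, 5.64, 4.39 and 4.71 in SAP and 21.8, 14.4, 12.8 and 11.8 in JZL184. The JZL184 libraries lay above all others except SAP library 1, which lay among them. Cxcl13 rose 3.41-fold in JZL184 against control (log2 fold change 1.77, SE 0.36, edgeR adjusted p = 0.0476). Against SAP its log2 fold change was 1.36 (SE 0.36, edgeR adjusted p = 0.108, DESeq2 adjusted p = 0.0157), and 1.78 without SAP libraries 1 and 2. The call against control was lost with all 3 groups in 1 fit, without either control sample and without JZL184 library 2 or 4. Of the 11 tested genes of follicles and Peyer's patch stroma, all 11 had positive log2 fold changes in JZL184 against SAP (Lta at 0.00), with a median of 1.09 beside -0.05 for all genes, and DESeq2 and limma-voom called Cxcl13 alone while edgeR called 0, with an unadjusted p below 0.05 in 6 (background 21.3%). The summed FPKM of the list was 204 and 202 in SAP libraries 1 and 2, 455 and 426 in SAP libraries 3 and 4, between 414 and 636 in JZL184 and between 346 and 418 in control. Without SAP libraries 1 and 2, 10 of the 11 were positive with a median of 0.71, beside 0.05 for all genes, and 2 had an unadjusted p below 0.05. The list was chosen with results of these data known. With all SAP libraries, Ltb, which encodes lymphotoxin beta, had 1.45 (edgeR adjusted p = 0.189) and Clu, a secreted chaperone, 0.59 (edgeR adjusted p = 0.188), and without SAP libraries 1 and 2 they had 0.81 and 0.43.

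**Figure D5:**
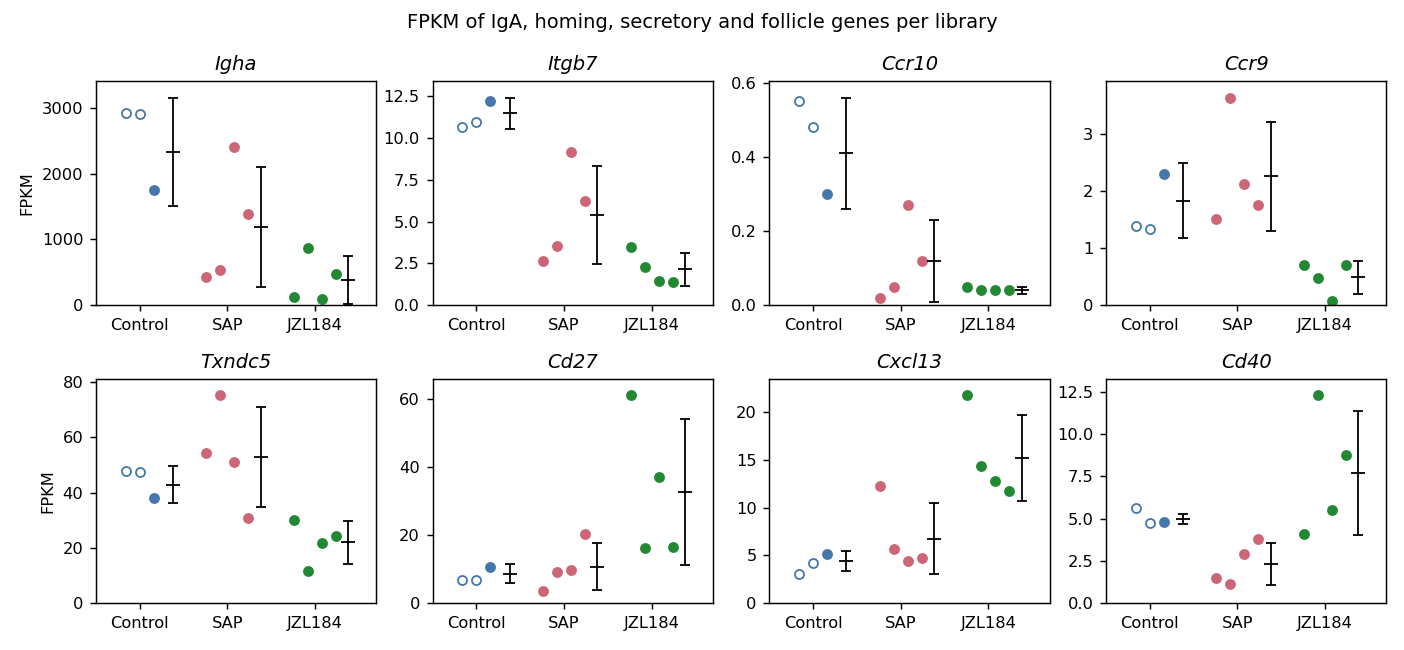
FPKM (linear, from 0) of Igha, of the homing genes Itgb7, Ccr10 and Ccr9, of the secretory gene Txndc5 and of Cd27, Cxcl13 and Cd40 in each library, with the mean ± SD (n = 2 control samples, 4 SAP and 4 JZL184) beside the points. In JZL184 Itgb7 lies between 1.40 and 3.49 and Cxcl13 between 11.8 and 21.8, against 10.7 to 12.2 and 3.08 to 5.09 in the control libraries.

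Among 24 further surface, signalling and identity genes of B cells, edgeR called 0 in each of the 3 comparisons, with an unadjusted p below 0.05 in 0 genes for SAP against control (background 9.09%), 6 for JZL184 against SAP (background 21.3%) and 1 for JZL184 against control (background 26.3%). Median log2 fold changes of the 24 were -0.47, 0.73 and 0.22 in this order, beside 0.06, -0.05 and 0.08 for all genes, and without SAP libraries 1 and 2 they were -0.17 in SAP against control and 0.52 in JZL184 against SAP. DESeq2 (background 6.98%) and limma-voom (background 4.57%) called 1 of the 24 in JZL184 against SAP, Cd40, which receives help from T cells and was higher in JZL184 than in SAP (log2 fold change 1.89, DESeq2 adjusted p = 0.0139, edgeR adjusted p = 0.122, log2 fold change 1.30 without SAP libraries 1 and 2). Cd40 had 1.5, 1.12, 2.89 and 3.76 FPKM in SAP and 4.11, 12.3, 5.48 and 8.79 in JZL184, so that the groups did not overlap, and 4.73 to 5.64 in control. It is also made by other antigen-presenting cells and by stroma. The genes next in order of p in that comparison were Ebf1, a partner of Pax5, at 0.96 (edgeR adjusted p = 0.147) and Cd72 at 0.90 (edgeR adjusted p = 0.165), which were 0.86 and 0.58 without SAP libraries 1 and 2. In JZL184 against control limma-voom alone called 2 lower, Cd37 and Btk (background 18.3%). Of the 12 germinal centre genes 11 were tested, and edgeR and DESeq2 called 0 in each comparison, with an unadjusted edgeR p below 0.05 in 2, 3 and 0 genes (backgrounds 9.09%, 21.3% and 26.3%), while limma-voom called 1, Gcsam, lower in JZL184 than in control (background 18.3%). Bcl6, the factor that directs germinal centre B cells, had 0.79 in JZL184 against SAP (edgeR adjusted p = 0.200, 0.59 without SAP libraries 1 and 2) and 0.86 in JZL184 against control (edgeR adjusted p = 0.204).

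Of the 16 genes of plasma cell identity and secretion, edgeR called 0 in each comparison, with an unadjusted p below 0.05 in 0 genes for SAP against control (background 9.09%), 5 for JZL184 against SAP (background 21.3%) and 8 for JZL184 against control (background 26.3%). In JZL184 against SAP, DESeq2 called Txndc5 and Pdia4 lower and Cd27 higher (background 6.98%), with log2 fold changes of -0.87, -1.34 and 1.11 without SAP libraries 1 and 2. Txndc5, a protein disulphide isomerase abundant in plasma cells, had 54.3, 75.2, 50.9 and 30.9 FPKM in SAP and 30.2, 11.6, 21.6 and 24.1 in JZL184, which did not overlap, and 38.0 to 47.8 in control (log2 fold change against SAP -1.11, SE 0.31, DESeq2 adjusted p = 0.0291, edgeR adjusted p = 0.116). Pdia4, an enzyme of the same family, had a log2 fold change of -1.45 (SE 0.47, DESeq2 adjusted p = 0.0415, edgeR adjusted p = 0.146). Cd27, a receptor of memory B cells and plasma cells that T cells also carry, had 61.1, 16.1, 37.2 and 16.4 FPKM in JZL184, between 3.6 and 20.2 in SAP and between 6.62 and 10.6 in control (log2 fold change against SAP 1.67, SE 0.58, DESeq2 adjusted p = 0.0485, edgeR adjusted p = 0.165). In JZL184 against control, DESeq2 called Cd27 (1.85) and Cd38 (1.65) higher and Derl3, which removes misfolded proteins from the endoplasmic reticulum, lower (-1.64), and limma-voom called 8 genes (background 18.3%), of which Derl3, Txndc5, Pdia4, Creld2 and Hsp90b1, all of the endoplasmic reticulum, were lower and Cd27, Cd38 and Prdm1 higher. Xbp1, the factor that expands the secretory apparatus of plasma cells and of epithelial secretory cells, had 112, 117 and 113 FPKM in control, 292, 351, 177 and 110 in SAP and 157, 63.1, 121 and 127 in JZL184. SAP libraries 1 and 2, low in Mzb1 and Tnfrsf17, were the highest of all libraries in Xbp1 and in Txndc5. Pdia4 had 215 and 163 FPKM in them, against 109 to 146 in control. It was not high in these libraries alone, since SAP library 3, the highest of all in Mzb1, had 211, and SAP library 4 had 73.0. SAP differed from control in Xbp1 by 0.82 on the log2 scale (SE 0.44, edgeR adjusted p = 0.459, 0.25 without SAP libraries 1 and 2).

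Markers of other cells differed between the groups as well. Neutrophil markers summed to between 1.06 and 2.54 FPKM in control, between 8.38 and 80.5 in SAP and between 12.9 and 250 in JZL184, and macrophage markers to between 297 and 349, between 144 and 366 and between 89.8 and 249. Among the 7 macrophage markers edgeR called 2 higher in JZL184 than in control (background 2.16%), Cd163 and Mrc1. DESeq2 called 2 higher and 1 lower there (background 10.8%). The 7 did not move together, with 3 positive and 4 negative log2 fold changes and a median of -0.30 in that comparison. C1qa, the largest part of the sum in each library, had 221 to 260 FPKM in control, 95.6 to 266 in SAP and 55.6 to 138 in JZL184. Cd163 had 0.60 to 0.77 FPKM in control, 2.83 to 13.1 in SAP and 2.65 to 7.66 in JZL184, and Mrc1 had 0.34 to 0.78, 2.24 to 5.98 and 2.08 to 3.93. Their part in the values of the 9 genes was not tested.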

How the data were processed

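Stranded mRNA libraries were made from ileum of 3 control, 4 SAP and 4 JZL184 rats. The authors trimmed reads with FASTX-Toolkit, aligned them to mRatBN7.2 with HISAT2 and deposited the count of uniquely aligned reads per gene, not normalized. The authors also deposited FPKM, normalized for gene length and library size, with 2 decimals. Which tool counted the reads, with which strand setting and annotation, is not given in the sources used here. Columns of other samples numbered 0.

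Groups follow the treatment in the labels. Reads of control libraries 1 and 2 were summed and their FPKM averaged. Pairs of groups were fitted over all genes with the quasi-likelihood method of edgeR 4.0.16 (R 4.3.3, TMM, default low-count filter with a minimum count of 10), checked on simulated data. Alternatives were DESeq2 1.42.0, limma-voom with quality weights (limma 3.58.1), DESeq2 size factors, no filter, a joint fit of all 3 groups, a filter of at least 10 reads in each library, no fold threshold, offsets for the gene length trend (span 0.3), the labels' replicate number as a block, separate control libraries, fits without SAP libraries 1 and 2, and leaving out each sample. Single genes were also compared by two-sided exact permutation of FPKM, and of log2(FPKM + 1) and log2(FPKM + 0.1). Python 3.11.15 was used for tables and plots.

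The 9 genes and the lists were chosen with earlier results of these data known. From each related list the 3 genes of smallest p and the called genes could be named, and Cxcl13, Tnfsf13, Tnfsf13b and Xbp1 always; others were chosen after their values were seen. Precision is set by 2 control samples and 4 libraries in the other groups; for Ccr10 and Tnfrsf17 counting error adds to it. Splicing was not analysed here, and 2 genes of the lists are not reported here.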

Additional observations from a re-analysis of the deposited data

Results flagged for a closer look

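The FPKM of Ms4a1 in JZL184 library 1, 18.4, lay far from the 3 other libraries of its group, at 2.35 to 4.51, with a gap of 0.866 of the range of the group. Of 20 groups of 4 values looked at, this was the only 1 with such a gap, and chance gives about 1 in 20. The cause was not tested.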

How the results depend on the processing

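The count of the 9 genes called moved under few alternatives. In SAP against control it was 0 in the report and 2, Pax5 and Cxcr5, with DESeq2 and separate control libraries (background 8.46%). In JZL184 against SAP it was 0 and became 1 with DESeq2 (background 6.98%). In JZL184 against control it was 1 and became 2, Jchain and Mzb1, with limma-voom (background 18.3%) and with DESeq2 on separate control libraries (3498 of the 23508 genes with a p-value). It ranged from 0 to 1 over the fits that left out a JZL184 library. Signs changed only for differences that passed no test. Without SAP libraries 1 and 2, SAP against control was 0.02 for Mzb1 and 0.01 for Tnfrsf17, and JZL184 against SAP was -0.04 for Cd79a, -0.00188 for Cd79b and -0.64 for Tnfrsf17. For JZL184 against SAP, limma-voom gave -0.03 for Ms4a1, and the length offsets gave 0.12 for Pigr. Leaving out a sample gave log2 ranges in JZL184 against SAP of -0.54 to 0.72 for Ms4a1, -0.62 to 0.22 for Mzb1 and -0.38 to 0.63 for Tnfrsf17, and in JZL184 against control of -0.22 to 0.08 for Pax5, with 0.04 without JZL184 library 4. The cause of these shifts was not tested.

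The deviations of the same-numbered SAP and JZL184 libraries correlated at 0.123, -0.449, -0.00413 and -0.101, and those of differently numbered ones at -0.35 to 0.409. So few correlations cannot decide whether the replicate numbers pair the samples. With the replicate number as a block the called members were 0, 0 and 1 in the 3 comparisons, while JZL184 against SAP was -0.07 for Ms4a1 and 0.10 for Mzb1, 0.08 for Pigr with length offsets as well, and JZL184 against control was 0.01 for Pax5. Block fits against control entered control libraries 1 and 2 separately and left out library 4 of the other group, which has no control of its number. The one without length offsets called 1430 of 15245 genes in JZL184 against control.

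Over all genes, the number called ranged over the alternatives from 0 to 1434 in SAP against control (0 in the report), from 0 to 1283 in JZL184 against SAP (0) and from 0 to 3498 in JZL184 against control (343). With 2 control samples, a control fit with 1 sample left assumes that it varies like the other group. Depth limited Ccr10 and, in SAP libraries 1 and 2, Tnfrsf17.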
